A study of Xenopus laevis with 39 samples.

Results

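Genes of the Wnt pathway were followed through 39 RNA-seq libraries from the olfactory organ and olfactory bulb of the frog Xenopus laevis. Membership was decided by gene name alone, as any entry named for a Wnt ligand, a Frizzled or Lrp5/6 receptor, a secreted antagonist, an R-spondin or its receptors and ligases, or for beta-catenin, Axin or a Tcf/Lef factor. The names matched 104 of 37223 gene entries, from 55 symbols. Of these entries 38 were ligands, 21 receptors and co-receptors, 19 secreted antagonists, 13 belonged to the R-spondin axis and 13 were intracellular or nuclear. The suffixes .L and .S mark the long and short copies (homeologs) that this species retains from an ancestral genome doubling. Both homeologs were present for 49 symbols, so neighbouring entries are not independent, and it was not examined how the counting split reads that fit both copies.

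Wnt proteins are secreted, lipid-modified signals that bind Frizzled receptors together with the co-receptors Lrp5 and Lrp6. In the canonical branch, binding keeps beta-catenin (ctnnb1) from the destruction complex built around Axin, so that it accumulates and joins Tcf/Lef factors on target genes, among them axin2 and notum, which act back on the pathway. Secreted Frizzled-related proteins (sfrp, frzb) and Wif1 bind Wnt ligands, and Dickkopf proteins such as Dkk1 bind Lrp5/6. The dkk3 entries were placed among the antagonists by name. Notum removes the lipid of Wnts, and R-spondins with Lgr receptors protect Frizzleds from the ligases Znrf3 and Rnf43. In mouse olfactory epithelium, which replaces its neurons throughout life, this pathway is studied for its action on basal stem cells.

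The 39 libraries formed 13 groups of 3. Whole noses came from adults (stage 66) and from untreated control larvae before metamorphosis, and the larval principal cavity, the main olfactory chamber, and the larval vomeronasal organ (VNO) were taken separately. The tissue label of the VNO libraries names another structure, and their titles were followed. Larval noses and larval olfactory bulbs were taken 2 days, 1 week and 7 weeks after a transection, for which the labels do not name the structure cut, and untreated larval bulbs served as their control. Further larval noses were taken after 5 h of exposure to amino acids at dose numbers 200 and 1000, whose unit is incomplete in the titles. Larval ages are not given for any group, so it is unknown whether treated and control larvae were of like age. In the 7-week groups time since transection and age cannot be told apart. No handled or vehicle control was analysed here. Since no label states that libraries of 1 group stem from different animals, p-values measure the spread between libraries only.

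Libraries held 25.82 to 180.53 megareads counted on genes (median 69.66), and 88 members were read in every library. Marker genes fitted the tissue labels. Summed over 13 entries, olfactory receptor neuron markers held 798.5 to 1060.0 counts per 1000000 reads (CPM) in control noses and 149 to 166 CPM in control bulbs, while bulb and forebrain neuron markers held 148 to 179 CPM in noses and 1997 to 2124 CPM in bulbs. The nose groups also differed in other tissues that a dissection can carry. Fibroblast and mesenchyme markers summed to 12710.0 to 33320.0 CPM in adult noses, 14970.0 to 21500.0 CPM in control larval noses and 1826 to 2342 CPM in noses at 7 weeks. The marker lists used below held 18 entries for fibroblasts and mesenchyme, 20 for cartilage and bone, 19 for proliferation, 11 for radial glia and 31 for bulb neurons, and every entry of these was read in every group. Skeletal muscle markers were high in control nose library 1 and in 2-day nose library 2, and these libraries are treated below. In bulk tissue, fewer cells of a type and less RNA per cell cannot be told apart.

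In every group beta-catenin and a few Frizzleds were the most abundant members, with ligands far below. Levels between genes were compared in transcripts per 1000000 (TPM), which is scaled by gene length. The beta-catenin entry ctnnb1.S led both tissues, at 162, 185 and 154 TPM in control noses, against 427, 448 and 399 TPM in control bulbs. The Frizzled fzd2.L reached 144, 168 and 139 TPM in noses and 144, 156 and 128 TPM in bulbs, ranges that overlap. The bulb's leading 10 included both homeologs of tcf7l2, a Tcf/Lef factor, with tcf7l2.S at 4.11, 7.02 and 4.70 TPM in noses and 63.9, 61.9 and 68.7 TPM in bulbs. The whole set of 38 ligand entries summed to only 32.2, 47.0 and 39.7 TPM in control noses and 47.2, 48.2 and 45.7 TPM in control bulbs, against 537, 722 and 556 TPM in noses and 672, 730 and 672 TPM in bulbs for the 21 receptor entries. Over all groups, 81 of 104 members exceeded 1 TPM in at least 1 group mean.

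**Figure D1:**
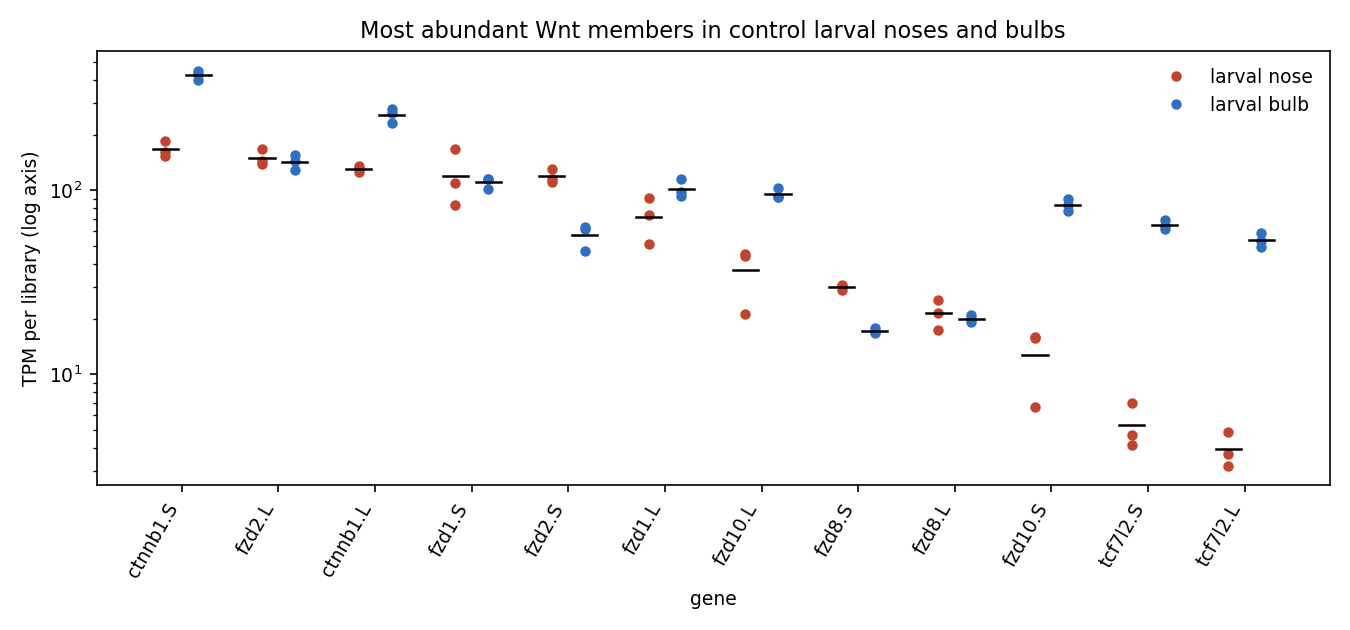
TPM in each of 3 control larval nose libraries (red) and 3 control larval bulb libraries (blue), on a log axis, for members among the 10 most abundant in either tissue; black bars are means. Both homeologs of ctnnb1, fzd10 and tcf7l2 lie higher in bulbs, with no overlap of libraries, while the libraries of fzd2.L and of fzd8.L overlap between the tissues.

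The untreated nose and bulb carried different sets of Wnt ligands. Relative to the other tissue, and not by level, noses stood out in wnt10a, wnt11, wnt5a and wnt9a, and bulbs in wnt1, wnt3, wnt8b, wnt2 and wnt7a. Bulbs also held far more of the nuclear factor tcf7l2 and of the feedback regulator axin2. Of the members 101 were tested, the other 3 being ligands read too rarely, and 44 were higher and 35 lower in control noses than in control bulbs by edgeR's quasi-likelihood test with Benjamini-Hochberg adjustment over all genes (called at an adjusted p under 0.05). The share of members called, 78.2%, lies near the background, with 74.8% of all genes (39.7% higher, 35.1% lower) called, so the count is not particular to the pathway.

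Of 35 ligand entries tested, noses had more of 19 and bulbs more of 11. Wnt10a, known from skin and tooth development, measured 2.98, 4.85 and 4.48 CPM in noses, against 0.0606, 0.116 and 0.126 CPM in bulbs for the .L copy (log2 fold change 5.37 ± 0.42, edgeR adjusted p = 6.97e-11). Wnt5a, a ligand chiefly of the noncanonical branches, had 12.2, 14.1 and 16.6 CPM in noses and 1.41, 1.58 and 1.42 CPM in bulbs (log2 fold change 3.33 ± 0.19, edgeR adjusted p = 2.65e-13). Noses were also higher in wnt11.L (3.70 ± 0.17, log2 fold change ± SE as in the parentheses that follow) and wnt9a.S (3.11 ± 0.16). On the side of the bulb stood wnt1, a ligand of the midbrain boundary in vertebrate embryos, and wnt8b, expressed at the edge of the embryonic cortex. Control noses held 0.0239, 0.0135 and 0 CPM of wnt1.L, against 2.63, 2.91 and 1.99 CPM in bulbs (log2 fold change -7.64 ± 0.64, edgeR adjusted p = 3.10e-10). For wnt8b.L the libraries gave 0.835, 1.10 and 0.914 CPM in noses and 13.4, 15.02 and 11.3 CPM in bulbs (log2 fold change -3.73 ± 0.27, edgeR adjusted p = 2.92e-11). None of these ligands had overlapping libraries between the tissues. Other ligands higher in bulbs were wnt3.L (-4.77 ± 0.47), wnt7a.S (-4.77 ± 0.39 (-2.73 with both homeologs summed)) and wnt2.S (-3.96 ± 0.28).

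Receptors split less widely, with 10 of 21 higher in noses and 6 in bulbs. Secreted antagonists divided evenly, 7 higher in noses and 8 in bulbs of 19. Both homeologs of wif1 (.L 0.99 ± 0.16, .S 1.74 ± 0.15) and dkk2.S (3.65 ± 0.27 (1.53 with both homeologs summed)) were on the nose side. Frzb.L (-1.78 ± 0.29), frzb.S (-2.18 ± 0.27), sfrp2.L (-1.28 ± 0.22) and sfrp2.S (-1.15 ± 0.16) were on the bulb side. In the R-spondin axis 6 of 13 were higher in noses, among them both homeologs of lgr5, which marks stem cells in several mouse epithelia.

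Nuclear and intracellular members leaned to the bulb, with 9 of 13 higher there and 2 higher in noses. Noses had 17.04, 17.9 and 14.1 CPM of tcf7l2.L and bulbs 173, 166 and 187 CPM (log2 fold change -3.37 ± 0.19, edgeR adjusted p = 2.07e-13), and tcf7l2.S differed alike (-3.21 ± 0.19). Axin2.L stood at 10.4, 12.0 and 8.96 CPM in noses, against 59.0, 59.8 and 60.7 CPM in bulbs (log2 fold change -2.46 ± 0.13, edgeR adjusted p = 1.43e-13). Both lef1 copies were lower in noses by less (.L -0.81 ± 0.20, .S -0.79 ± 0.16). Further pathway entries, 134 of them tested, split into 44 with more in noses and 65 with more in bulbs. These included sp5, a canonical target in vertebrate embryos (sp5.L −4.02, sp5.S −4.30), and kremen2, a Dickkopf receptor (kremen2.L 6.58, kremen2.S 6.67).

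**Figure D2:**
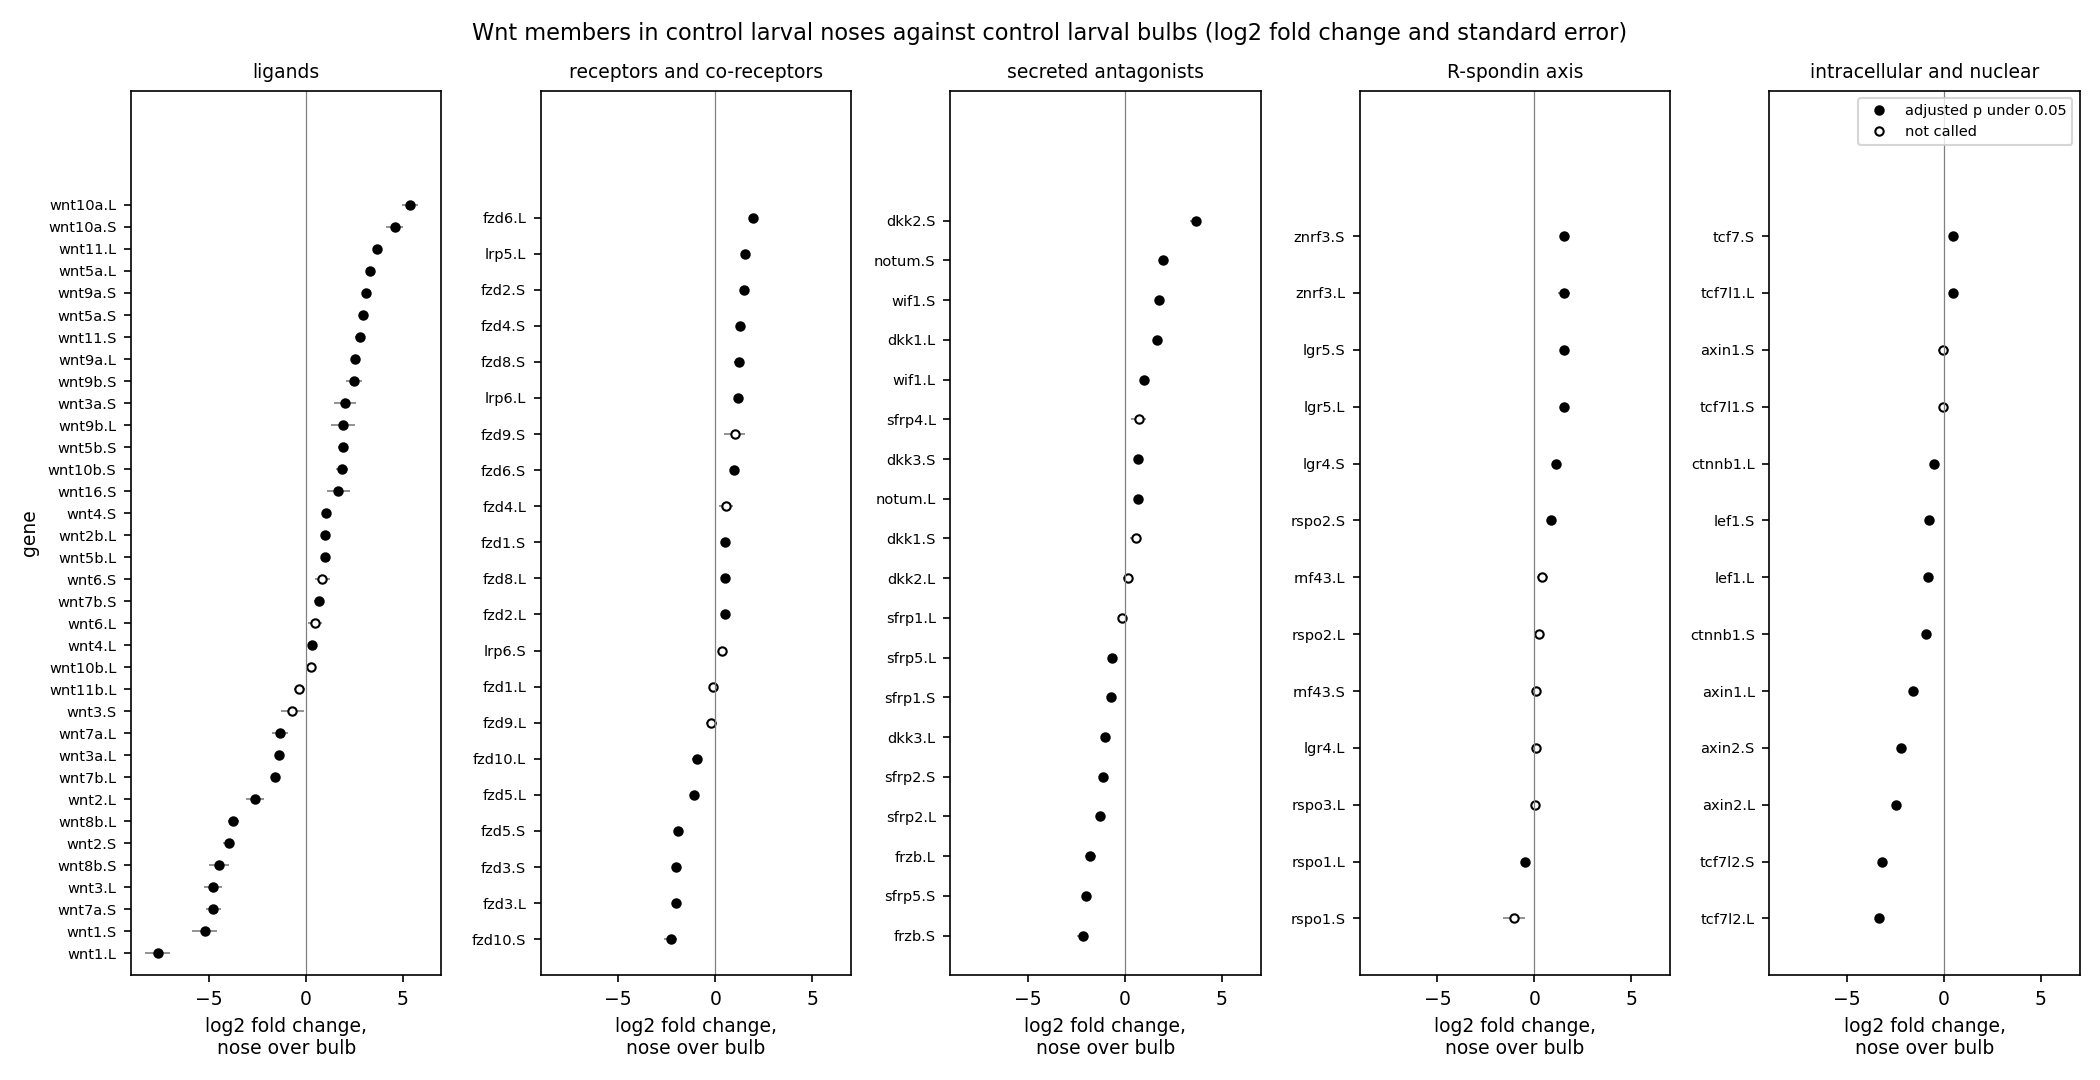
Log2 fold change, control larval noses over control larval bulbs, with standard errors, for 101 tested members in 5 panels by role; filled points have an adjusted p under 0.05. Ligands span the widest range, from −7.64 for wnt1.L to 5.37 for wnt10a.L, and nuclear members lie mostly on the bulb side.

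Adult noses differed from control larval noses most in their secreted antagonists. Of 19 antagonist entries, 14 were higher in adults and 1 was lower, with a median log2 fold change of 1.29 against -0.00 for all genes tested, of which 22.7% were higher and 22.6% lower. Ligands leaned the other way, with 4 higher and 15 lower of 35 tested (median -0.48). Over all roles, 32 of 101 tested members were higher in adults and 24 were lower, beside 45.3% of all genes called.

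The sfrp2 pair, Wnt-binding proteins of mesenchyme and other tissues, reached the leading 10 members of adult noses. Adults had 57.4, 62.1 and 78.3 CPM of sfrp2.S, against 19.6, 10.4 and 13.3 CPM in larvae (log2 fold change 2.20 ± 0.18, edgeR adjusted p = 1.01e-08), and 40.1, 48.7 and 34.8 CPM of sfrp2.L, against 13.5, 5.78 and 9.63 CPM in larvae (log2 fold change 2.10 ± 0.24, edgeR adjusted p = 7.27e-07). Frzb, known from cartilage, had 16.4, 19.2 and 26.4 CPM of its .L copy in adults and 8.16, 4.41 and 5.56 CPM in larvae (log2 fold change 1.78 ± 0.25, edgeR adjusted p = 7.88e-06). None of these antagonists had overlapping libraries. Further antagonists higher in adults were sfrp4.L (2.40 ± 0.31), dkk2.L (1.76 ± 0.25), dkk3.S (1.51 ± 0.21), dkk3.L (1.35 ± 0.25), sfrp1.S (1.32 ± 0.19), sfrp1.L (1.27 ± 0.14) and wif1.L (0.55 ± 0.16). Notum.S was the 1 antagonist lower in adults (-0.82 ± 0.14 (-0.39 with both homeologs summed)). Fibroblast and mesenchyme markers reached 12710.0 to 33320.0 CPM in adults and 14970.0 to 21500.0 CPM in larvae, ranges that overlap, and proliferation markers 141 to 274 CPM in adults and 496 to 865 CPM in larvae. Their part in these differences was not tested.

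Lower in adults were the ligands wnt5b.L (-1.41 ± 0.16), wnt5b.S (-1.01 ± 0.18) and wnt2b.L (-0.99 ± 0.21). Wnt5b.L had 8.40, 8.62 and 9.47 CPM in adults, against 24.8, 22.0 and 23.8 CPM in larvae, with no overlap. Rspo3.L, an R-spondin of mesenchyme and vessels, was also lower (log2 fold change -1.34 ± 0.17, edgeR adjusted p = 2.48e-06), although 5 of 13 members of its axis were higher and 2 lower. Receptors had 8 higher and 3 lower of 21. The homeologs of axin2 went opposite ways (.L 0.63 ± 0.13 (0.08 with both homeologs summed), .S -0.69 ± 0.17 (0.08 with both homeologs summed)), and the sum was not called. Of 134 further pathway entries, adults were higher in 26 and lower in 41, those lower including the growth regulators myc.L (−1.53) and myc.S (−1.001).

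**Figure D3:**
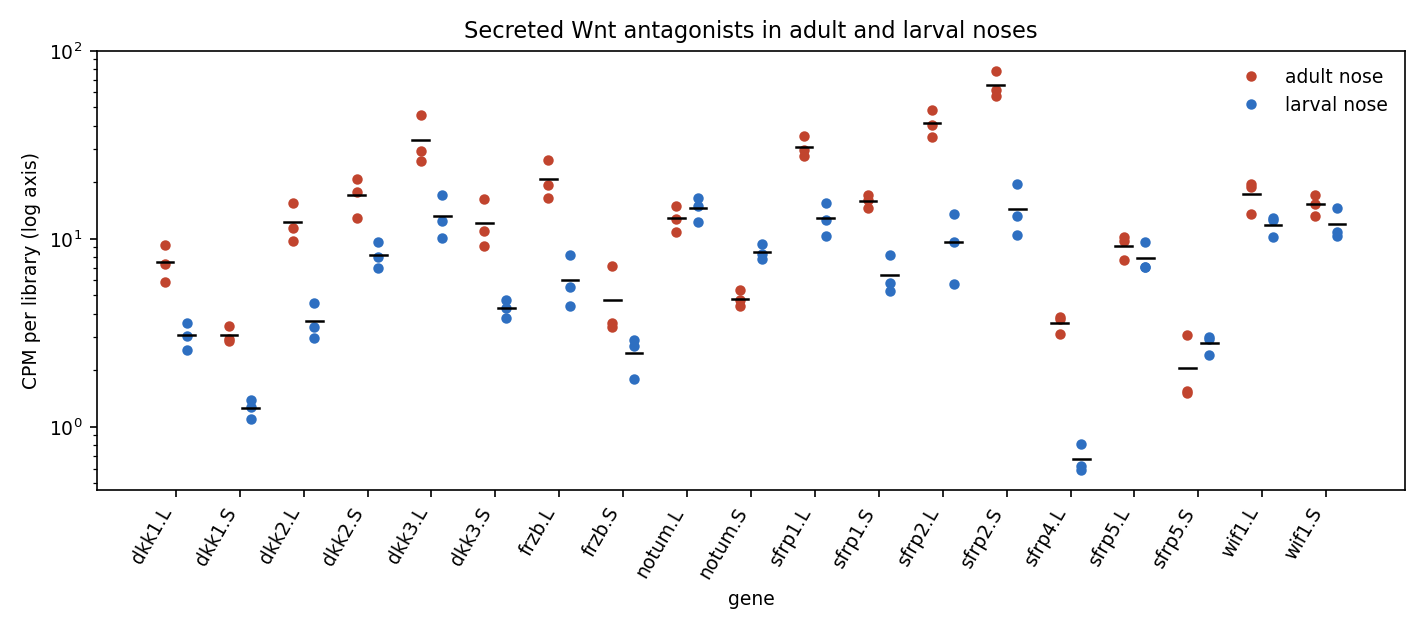
CPM per library (log axis) of the 19 secreted antagonist entries in 3 adult noses (red) and 3 control larval noses (blue); black bars are means. Adult libraries lie above larval ones for sfrp2, sfrp4, frzb.L, dkk3 and sfrp1, and below them for notum.S.

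Within the larval nose, the principal cavity had less wnt11b.L and more tcf7l2.S than the VNO, and how many other members differed depended on the model. With the 6 libraries alone, the principal cavity was higher in 5 and lower in 6 of 96 tested members, which is 11.5% of them, beside 15.2% of all genes (8.66% higher, 6.53% lower) called. The count of 11 members was 21 by the DESeq2 Wald test and 49 in 1 model of all 39 libraries. Every alternative kept the calls of wnt11b.L, an entry of the wnt11 family, and tcf7l2.S. Wnt11b.L had 0.0315, 0.147 and 0.0578 CPM in the principal cavity, against 2.93, 6.81 and 3.75 CPM in the VNO (log2 fold change -5.81 ± 0.63, edgeR adjusted p = 9.93e-04), with no overlap. Tcf7l2.S was higher in the principal cavity (1.03 ± 0.16 (0.65 with both homeologs summed)), with 21.4, 23.0 and 18.8 CPM there and 10.1, 10.9 and 10.02 CPM in the VNO. The other calls depended on single libraries. Proliferation markers summed to 122 to 784 CPM in the principal cavity and 527 to 975 CPM in the VNO, and their part was not tested. Among the 6 libraries the count of 11 fell to 2 without principal cavity library 1, to 5 without principal cavity library 3 or VNO library 2, and became 19 without VNO library 1. Principal cavity wif1.L measured 9.31, 8.39 and 8.40 CPM, against 3.69, 1.74 and 3.56 CPM in the VNO (log2 fold change 1.55), a call that ended without principal cavity library 1 (1.499) or 3 (1.57). Fzd8.S, a Frizzled, measured 22.6, 24.7 and 14.5 CPM in the principal cavity and 9.30, 9.87 and 8.56 CPM in the VNO (log2 fold change 1.16), with its call ended without principal cavity library 1 (1.10). Libraries of either kind did not overlap for wif1.L and fzd8.S. Among 131 further pathway entries, the principal cavity was higher in 9 and lower in 7, those lower including sp5.L (−2.16) and the glypicans gpc3.L (−2.75) and gpc3.S (−2.17).

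In the nose after transection, the antagonist wif1.L was higher at each time, frzb was called lower at 1 and 7 weeks, and most ligands did not pass the test. The 3 comparisons share the same control noses. Of 101 members tested, 12 rose and 4 fell at 2 days, 20 rose and 16 fell at 1 week, and 24 rose and 18 fell at 7 weeks. The test called 20.2% of all genes (9.62% higher, 10.6% lower) at 2 days, 39.7% of all genes (18.0% higher, 21.6% lower) at 1 week and 48.5% of all genes (21.7% higher, 26.8% lower) at 7 weeks, and the members' shares were 15.8%, 35.6% and 41.6%, below it each time. The 2-day count of 16 fell to 7 without 2-day nose library 2 and to 10 without control nose library 3 or 2-day nose library 3. It was also 7 without the 2 libraries high in skeletal muscle markers. At 1 week 5 ligands rose and 6 fell, and at 7 weeks 9 rose and 5 fell.

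Wif1 carries a domain that binds Wnt ligands outside the cell. Its .L copy had 10.3, 12.5 and 12.9 CPM in control noses, 18.2, 26.1 and 24.2 CPM at 2 days, 24.0, 26.2 and 25.6 CPM at 1 week and 37.7, 33.0 and 34.7 CPM at 7 weeks. The log2 fold changes against control were 0.93 ± 0.16 (0.49 with both homeologs summed), 1.08 ± 0.16 and 1.56 ± 0.16 in that order (edgeR adjusted p = 3.70e-04, 1.66e-05 and 1.53e-07), and no library at any time overlapped the controls. Wif1.S rose at 7 weeks (1.24 ± 0.17), and was not called at 2 days (-0.12) or 1 week (0.31). Sfrp1.L rose at 2 days (0.75 ± 0.14) and 1 week (0.65 ± 0.14), and was also called at 7 weeks (0.48 ± 0.14). Sfrp1.S was also called at 2 days (0.55 ± 0.19), and was not called at 1 week (0.30) or 7 weeks. In contrast frzb.L had 8.16, 4.41 and 5.56 CPM in control noses, 3.58, 3.90 and 3.79 CPM at 2 days, 2.81, 2.504 and 2.24 CPM at 1 week and 1.18, 0.842 and 0.309 CPM at 7 weeks. It fell at 1 week (log2 fold change -1.26 ± 0.25, edgeR adjusted p = 4.72e-04) and at 7 weeks (log2 fold change -2.91 ± 0.29, edgeR adjusted p = 1.41e-07), with 7-week values below all others. Frzb.S fell alike (-1.32 ± 0.37 and -2.44 ± 0.42), and dkk3.L fell at 7 weeks (-1.62 ± 0.27 (-0.95 with both homeologs summed)). Neither frzb copy was called at 2 days (.L -0.685 and .S -0.956, edgeR adjusted p = 0.0543 and 0.0652). The 2-day libraries of both copies nevertheless lay below all controls. Cartilage and bone markers, a tissue that expresses frzb, summed to 11010.0 to 14440.0 CPM in control noses, 6230.0 to 9924 CPM at 2 days, 3189 to 4101 CPM at 1 week and 665 to 1004 CPM at 7 weeks, and fibroblast and mesenchyme markers fell to 1826 to 2342 CPM at 7 weeks, against 14970.0 to 21500.0 CPM in control noses. Their part in the fall of frzb and dkk3.L was not tested.

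Among ligands, wnt2.S rose at 1 week (log2 fold change 1.95 ± 0.35, edgeR adjusted p = 1.66e-04) and 7 weeks (2.03 ± 0.36), from a low level. Wnt2.S was also called at 2 days (1.22 ± 0.35). It measured 0.119, 0.364 and 0.335 CPM in control noses, 0.678, 0.532 and 0.801 CPM at 2 days, 1.04, 0.930 and 1.33 CPM at 1 week and 0.997, 1.43 and 0.978 CPM at 7 weeks. At 7 weeks wnt11b.L (2.03 ± 0.30), wnt2b.L (1.11 ± 0.21) and wnt9a.S (1.10 ± 0.14) also rose. Wnt9a.S was also called at 1 week (0.42 ± 0.14). The 7-week noses had 2.40, 2.19 and 2.83 CPM of wnt11b.L, against 0.453, 0.687 and 0.643 CPM in control noses. Wnt7a.L fell (-2.43 ± 0.65 (-1.40 with both homeologs summed)), and was also called at 1 week (-1.48 ± 0.58). The part of the cartilage and mesenchyme lists in these ligand changes was not tested. Against 1 week, 13 members were higher and 14 lower at 7 weeks, beside 33.5% of all genes (17.1% higher, 16.4% lower) called. Of these, 6 ligands were higher and 0 lower, and sfrp4.L was among the antagonists that fell (-2.19 ± 0.36).

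Of the receptors, fzd10.L rose at 2 days, with 24.6, 38.6 and 40.7 CPM at 2 days and 21.6, 16.5 and 9.64 CPM in control noses (log2 fold change 1.12 ± 0.27, edgeR adjusted p = 0.00659). Fzd6.L was also higher then (0.53 ± 0.11), and was also called at 1 week (0.44 ± 0.11). The co-receptor lrp5.L rose at 1 week (0.68 ± 0.13). It was also called higher at 2 days (0.41 ± 0.13, with overlapping libraries) and at 7 weeks (1.015 ± 0.13). The other co-receptor went the opposite way. Lrp6.L was also called lower at 2 days (-0.81 ± 0.22) and 1 week (-0.84 ± 0.22), and lrp6.S at 1 week (-0.465 ± 0.18). At 7 weeks 3 receptors rose and 6 fell, those fallen including fzd3.S (-1.21 ± 0.22) and fzd4.L (-1.98 ± 0.39 (-0.73 with both homeologs summed)). In the R-spondin axis, lgr5.S rose at 1 week (0.68 ± 0.16) and rspo1.L, an R-spondin, at 7 weeks (1.54 ± 0.18). Lgr5.S was also called at 7 weeks (0.92 ± 0.16), and rspo1.L was also called at 1 week (0.61 ± 0.18). Rspo1.L had 8.93, 7.26 and 9.01 CPM at 7 weeks and 3.65, 2.34 and 2.71 CPM in control noses, with no overlap. Znrf3.L, a ligase that removes Frizzleds, fell at 1 week (-1.14 ± 0.30), and was also called lower at 2 days (-1.15 ± 0.30). Of nuclear members, axin2.L rose at 2 days (0.63 ± 0.13), and at 1 week lef1.S (0.59 ± 0.17) and tcf7l2.S (0.62 ± 0.13) rose. The other copy of each was not called at 2 days, 1 week or 7 weeks. For axin2.S the log2 fold change was 0.26 at 2 days, and at 1 week it was 0.18 for lef1.L and 0.26 for tcf7l2.L. Axin2.L was also called at 1 week (0.47 ± 0.13) and at 7 weeks (0.50 ± 0.13, with overlapping libraries). Lef1.S was also called at 7 weeks (0.59 ± 0.17) and tcf7l2.S at 2 days (0.38 ± 0.13), so these calls give no order in time. Ctnnb1.L fell at 1 week (-0.39 ± 0.13) and 7 weeks (-0.63 ± 0.13), while ctnnb1.S was not called at 1 week (0.19). Axin1.S was also called lower at 1 week (-0.98 ± 0.34, with overlapping libraries). Olfactory receptor neuron markers fell over the same libraries to 225 to 239 CPM at 1 week, against 798.5 to 1060.0 CPM in control noses, and proliferation markers to 139.8 to 189.9 CPM, against 496 to 865 CPM, and their part in these changes was not tested. Of 134 further pathway entries, 8 rose and 20 fell at 2 days, 16 and 43 at 1 week and 23 and 49 at 7 weeks. Both copies of cyclin D1 fell at each time (ccnd1.L −1.28, −2.22 and −2.11, ccnd1.S −0.82, −1.38 and −1.08).

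In the bulb after transection, more Wnt pathway members fell than rose at each time, and the secreted antagonists frzb, sfrp1, sfrp2 and sfrp5 were among those that fell. Of 101 members, 6 rose and 37 fell at 2 days, 13 rose and 41 fell at 1 week, and 18 rose and 53 fell at 7 weeks, again against 1 shared set of control bulbs. In 1 model of all 39 libraries, 28 members were called at 2 days and 34 at 1 week, against 43 and 54 in the model of bulbs. The test called 46.2% of all genes (21.6% higher, 24.7% lower) at 2 days, 56.0% of all genes (27.0% higher, 29.1% lower) at 1 week and 65.9% of all genes (32.1% higher, 33.7% lower) at 7 weeks. The share of members called was 42.6%, 53.5% and 70.3%, near the background at each time.

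Of 19 antagonists, 1 rose and 10 fell at 2 days, 5 rose and 11 fell at 1 week, and 5 rose and 12 fell at 7 weeks. Their median log2 fold change was -0.87, -0.97 and -0.90 over these times, beside -0.02, 0.01 and -0.00 for all genes tested. Frzb.L had 20.4, 19.2 and 24.4 CPM in control bulbs, 5.86, 4.52 and 3.54 CPM at 2 days, 5.94, 3.29 and 3.19 CPM at 1 week and 5.53, 3.04 and 5.89 CPM at 7 weeks. Its log2 fold changes were -2.30 ± 0.29, -2.43 ± 0.29 and -2.15 ± 0.29 (edgeR adjusted p = 6.98e-05, 2.21e-05 and 3.30e-05), so the fall was present at 2 days and its later values overlapped the 2-day ones. Sfrp1.S had 11.1, 10.6 and 10.8 CPM in control bulbs, 4.12, 3.52 and 3.47 CPM at 2 days, 3.94, 2.63 and 2.68 CPM at 1 week and 1.95, 2.58 and 2.94 CPM at 7 weeks, with log2 fold changes of -1.64 ± 0.17, -1.89 ± 0.17 and -2.12 ± 0.17. Sfrp5.S fell at each time (-1.19 ± 0.14, -2.18 ± 0.15 and -2.44 ± 0.15), to 2.19, 2.13 and 2.01 CPM at 7 weeks, against 12.5, 12.9 and 8.83 CPM in control bulbs. No library of sfrp1.S, sfrp5.S or frzb.L after transection overlapped the control bulbs.

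Sfrp2.L (-1.44 ± 0.15, -1.497 ± 0.15 and -1.72 ± 0.15 (-1.002 with both homeologs summed) at the 3 times), sfrp1.L (-1.09 ± 0.17, -1.40 ± 0.17 and -1.43 ± 0.17) and frzb.S (-1.57 ± 0.16, -2.002 ± 0.16 and -2.33 ± 0.16) fell alike. The antagonists that rose were fewer. Wif1.S rose at 1 week (0.61 ± 0.12) and 7 weeks (0.67 ± 0.12), wif1.L at 7 weeks (0.82 ± 0.15) and dkk1.L at 7 weeks (0.82 ± 0.17). Radial glia and astroglia markers, cells that line the ventricles, summed to 2411 to 3113 CPM in control bulbs, 1505 to 1677 CPM at 2 days, 1432 to 1597 CPM at 1 week and 1044 to 1727 CPM at 7 weeks. Proliferation markers summed to 638 to 946 CPM in control bulbs, 153 to 174 CPM at 2 days, 74.6 to 86.2 CPM at 1 week and 78.6 to 115 CPM at 7 weeks, and fibroblast and mesenchyme markers to 622 to 728 CPM, 373 to 1259 CPM, 175 to 190.5 CPM and 87.1 to 115 CPM in the same order. The glia and proliferation lists lay below control bulbs at each time, and the fibroblast and mesenchyme list at 1 and 7 weeks only, with 2-day libraries on both sides of the controls. Their part in the fall of the antagonists was not tested.

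More receptors were called lower at 7 weeks than at the earlier times. Of 21 receptor entries, 2 rose and 8 fell at 2 days, 1 rose and 9 fell at 1 week, and 1 rose and 17 fell at 7 weeks (median -0.84 at 7 weeks). The share of all genes called lower also grew, from 24.7% at 2 days to 29.1% at 1 week and 33.7% at 7 weeks. Fzd3.L, a Frizzled that guides axons in mice, had 23.4, 26.4 and 25.3 CPM at 7 weeks, against 85.7, 94.1 and 75.1 CPM in control bulbs (log2 fold change -1.76 ± 0.09, edgeR adjusted p = 6.74e-09), with no overlap. Fzd10.S fell at 2 days (-1.38 ± 0.14), and the co-receptor lrp5.L rose at 1 week (0.68 ± 0.10). Nuclear and intracellular members were called lower in 6, 4 and 9 of 13 at the 3 times, and higher in 0, 1 and 0. Tcf7l2.L had 173, 166 and 187 CPM in control bulbs, 164, 139 and 151 CPM at 2 days, 183, 189.6 and 170.4 CPM at 1 week and 60.1, 107 and 83.1 CPM at 7 weeks. It fell at 7 weeks (log2 fold change -1.08 ± 0.15, edgeR adjusted p = 3.26e-05), also against 1 week (-1.04 ± 0.15), and was not called at 2 days (-0.30) or 1 week (-0.04). Axin2.L was not called at 2 days (0.07) or 7 weeks (-0.02). At 1 week its log2 CPM lay 0.33 ± 0.03 (SD, n = 3) above the mean of control bulbs. Bulb and forebrain neuron markers summed to 1590.0 to 1759 CPM at 7 weeks and 1997 to 2124 CPM in control bulbs, and their part was not tested.

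Among 35 bulb ligands tested, 2 rose and 9 fell at 2 days, 6 rose and 13 fell at 1 week and 10 rose and 9 fell at 7 weeks. Of all genes, 21.6%, 27.0% and 32.1% were called higher and 24.7%, 29.1% and 33.7% lower at these times. Wnt10a.L, nearly absent from control bulbs, rose at 7 weeks (log2 fold change 3.69 ± 0.48, edgeR adjusted p = 2.11e-05). It had 0.0606, 0.116 and 0.126 CPM in control bulbs, 0.688, 0.169 and 0.608 CPM at 2 days, 0.818, 0.657 and 0.649 CPM at 1 week and 1.47, 1.73 and 0.797 CPM at 7 weeks, all later libraries above the controls. For wnt10a.S the log2 CPM minus the mean of control bulbs was 0.49 ± 0.96, 0.28 ± 0.46 and -0.18 ± 0.61 (SD, n = 3) at these times. Wnt2.S rose at 1 week (0.91 ± 0.15). Against 1 week, 9 members were higher and 29 lower in bulbs at 7 weeks, beside 38.6% of all genes (20.1% higher, 18.5% lower) called, and the model of all 39 libraries called 22 members, against 38 here. In the R-spondin axis 2 rose and 6 fell at 7 weeks of 13, with znrf3.S among those that rose (1.03 ± 0.16 (0.34 with both homeologs summed)). Of 134 further pathway entries, 58 fell at 2 days, 64 at 1 week and 81 at 7 weeks, while 15, 20 and 19 rose. Among those that fell were both ccnd1 copies at each time (ccnd1.L −1.56, −2.13 and −2.86, ccnd1.S −1.25, −1.61 and −2.52) and igfbp4.S, a secreted modulator of Wnt and insulin-like growth factor signals (−1.12, −2.07 and −2.58).

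**Figure D4:**
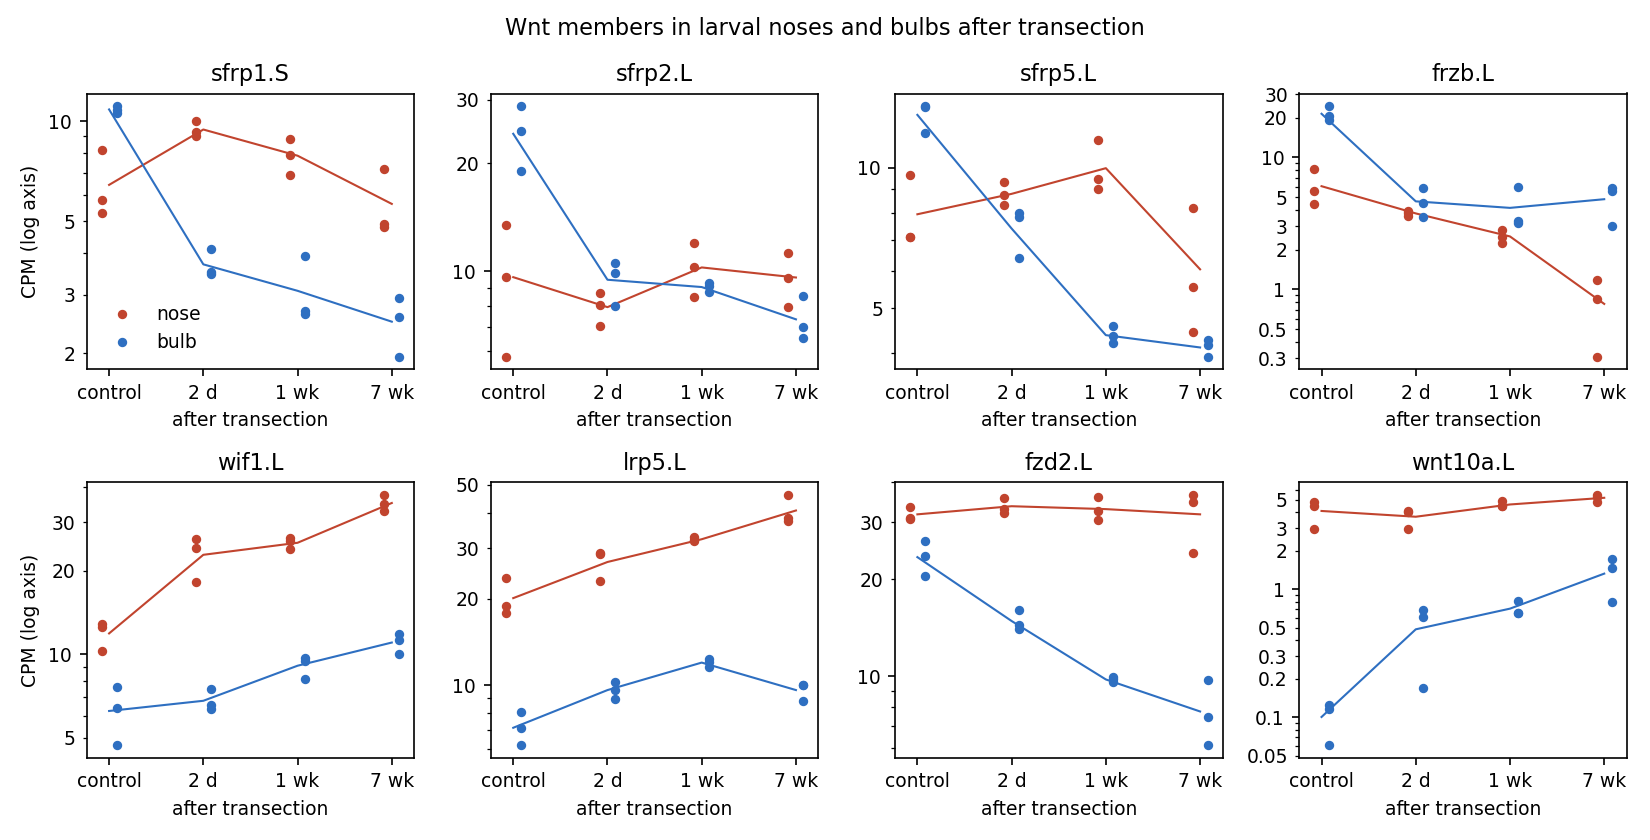
CPM per library (log axes) of 8 members in control larvae and 2 days, 1 week and 7 weeks after transection, noses in red and bulbs in blue; lines join group means. In bulbs sfrp1.S, sfrp2.L and frzb.L lie below their controls at each time, in noses frzb.L falls too, wif1.L and lrp5.L lie above their controls in noses at 1 and 7 weeks, and wnt10a.L rises above its controls in bulbs.

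The nose and the bulb responded differently in sfrp1, sfrp2 and sfrp5. The difference was tested as the nose response minus the bulb response, each against its own control, in 1 model of 24 libraries. Of 101 members, 20 were higher and 5 lower in this difference at 2 days, 22 and 7 at 1 week, and 38 and 6 at 7 weeks, beside 16.1% of all genes (5.52% higher, 10.5% lower), 25.4% of all genes (10.9% higher, 14.5% lower) and 35.7% of all genes (16.4% higher, 19.3% lower) called at these times. For sfrp1.S the difference was 2.09 ± 0.28, 2.12 ± 0.28 and 1.90 ± 0.28 at 2 days, 1 week and 7 weeks (edgeR adjusted p = 2.97e-05, 9.56e-06 and 2.62e-05). For sfrp1.L it was 1.73 ± 0.23, 1.98 ± 0.23 and 1.89 ± 0.23. Sfrp5 differed at 1 week (.L 1.91 ± 0.24, .S 1.55 ± 0.34). Sfrp5.L was also called at 2 days (0.94 ± 0.24) and 7 weeks (1.24 ± 0.24), while sfrp5.S was called at neither. Noses had 11.5, 9.47 and 9.01 CPM of sfrp5.L at 1 week and 9.64, 7.10 and 7.10 CPM in control noses, against 4.57, 4.35 and 4.202 CPM in bulbs at 1 week and 13.6, 13.5 and 11.9 CPM in control bulbs. Sfrp2 differed at 1 week (.L 1.53 ± 0.31, .S 0.97 ± 0.23). It was also called at 2 days (.L 1.06 ± 0.31, .S 1.22 ± 0.23), and at 7 weeks in its .L copy alone (1.69 ± 0.31). Fzd10 differed at 2 days (.L 2.06 ± 0.33, .S 2.36 ± 0.44). It was also called at 1 week (.L 1.12 ± 0.33, .S 1.47 ± 0.44), and at 7 weeks in its .S copy alone (1.37 ± 0.44). The tcf7l2 pair differed at 7 weeks (.L 1.33 ± 0.24, .S 0.87 ± 0.25). Wnt10a.L ran the other way at 2 days (-2.45 ± 0.53) and 7 weeks (-3.37 ± 0.52), with log2 fold changes of -0.16 and 0.34 in noses (neither called), against 2.18 and 3.69 in bulbs (both called). Its difference was also called at 1 week (-2.62 ± 0.52), while that of wnt10a.S was not called at any time. Frzb.L differed at 2 days (1.51 ± 0.41) and was not called to differ at 7 weeks (-0.79), and frzb.S was not called at any time.

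After amino acid exposure, noses held less frzb at both dose numbers. At dose number 1000 they held more of the ligands wnt11b, wnt9b and wnt4 and less of wnt11 and wnt5b. Both comparisons use the same control noses. Of 101 members, 9 rose and 21 fell at dose number 200, with 35.4% of all genes (17.8% higher, 17.7% lower) called. At dose number 1000, 20 rose and 32 fell, with 49.5% of all genes (26.8% higher, 22.7% lower) called. The members' shares were 29.7% and 51.5%.

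Antagonists fell in 8 of 19 entries and rose in 3 at dose number 200, and fell in 9 and rose in 4 at dose number 1000. Frzb.L had 8.16, 4.41 and 5.56 CPM in control noses, 1.30, 1.46 and 1.496 CPM at dose number 200 (log2 fold change -2.10 ± 0.26, edgeR adjusted p = 4.00e-06) and 0.610, 0.722 and 0.594 CPM at dose number 1000 (log2 fold change -3.23 ± 0.28, edgeR adjusted p = 1.40e-08), and exposed libraries lay below all controls. Frzb.S fell in the same way (-2.99 ± 0.40 and -3.43 ± 0.41), and dkk2 fell at dose number 1000 (.L -1.51 ± 0.26, .S -1.73 ± 0.21). Sfrp2.S rose at dose number 1000 (0.72 ± 0.18). The cartilage and bone list summed to 11010.0 to 14440.0 CPM in control noses, 782 to 1099 CPM at dose number 200 and 329 to 418 CPM at dose number 1000, and the fibroblast and mesenchyme list to 14970.0 to 21500.0 CPM, 1930.0 to 2326 CPM and 1122 to 1414 CPM. At dose number 1000 dkk3.S also rose (0.88 ± 0.21) and dkk3.L fell (-1.11 ± 0.26), while sfrp2.L was not called (0.10). The part of these lists in the antagonist changes was not tested. A secreted matrix protein that binds Wnts, cthrc1.L, fell as well (−3.86 and −5.52).

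Among ligands, 3 rose and 8 fell at dose number 200, among those that fell wnt5b.L (-1.14 ± 0.16). At dose number 1000, 8 rose and 9 fell. Wnt9b.L had 2.94, 2.90 and 2.43 CPM at dose number 1000, against 0.358, 0.862 and 0.476 CPM in control noses (log2 fold change 2.26 ± 0.50, edgeR adjusted p = 8.60e-04), and wnt9b.S rose too (1.56 ± 0.31). Wnt11b.L had 3.61, 3.65 and 4.69 CPM, against 0.453, 0.687 and 0.643 CPM in control noses (log2 fold change 2.73 ± 0.30, edgeR adjusted p = 3.39e-07). Wnt4.S, a ligand of epithelia, also rose (1.28 ± 0.15), and wnt7a.L fell (-2.19 ± 0.59). Also called lower were wnt11.S (-2.08 ± 0.23), wnt11.L (-0.48 ± 0.14), wnt5b.L (-1.22 ± 0.16) and wnt5b.S (-1.16 ± 0.18). None of these ligands had overlapping libraries at dose number 1000. Wnt11b.L was also higher at 7 weeks after transection (2.03 ± 0.30), against the same control noses. Within untreated larval noses it averaged 4.50 CPM in the VNO and 0.0788 CPM in the principal cavity. The cartilage and mesenchyme lists differed between the same exposed and control noses, and their part in these ligand changes was not tested. Of nuclear members, lef1.L rose (1.23 ± 0.23 (0.75 with both homeologs summed)) and axin2.S fell (-1.43 ± 0.17 (-0.84 with both homeologs summed)) at dose number 1000. The further pathway entries fell more often than they rose, 44 against 9 of 134 at dose number 200 and 50 against 21 at dose number 1000.

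Homeologs of a symbol mostly went together where both were called, and dkk3 and notum were among the exceptions. In control noses against control bulbs 28 pairs were called in the same direction and 3 in opposite directions. Adult against control larval noses gave 12 and 3, the opposite pairs being axin2, fzd4 and wnt9a. Dkk3.L, a divergent Dickkopf, had 6.53, 5.54 and 5.73 CPM in noses at 1 week, against 16.99, 10.1 and 12.4 CPM in control noses (log2 fold change -1.15 ± 0.26 (-0.24 with both homeologs summed), edgeR adjusted p = 0.00139). Dkk3.S had 11.3, 8.77 and 7.11 CPM in noses at 1 week, against 4.72, 3.81 and 4.27 CPM in control noses (log2 fold change 1.09 ± 0.21 (-0.24 with both homeologs summed), edgeR adjusted p = 4.08e-04), so 1 copy fell and the other rose without overlap of libraries. The pair also split at dose number 1000, where dkk3.L fell (-1.11 ± 0.26 (-0.33 with both homeologs summed)) and dkk3.S rose (0.88 ± 0.21 (-0.33 with both homeologs summed)). Its copies were also called in opposite directions at dose number 200, in bulbs at 7 weeks and in control noses against control bulbs. In bulbs at 7 weeks notum.S had 0.580, 0.543 and 0.618 CPM, against 2.34, 2.18 and 2.18 CPM in control bulbs (log2 fold change -1.94 ± 0.17 (0.38 with both homeologs summed), edgeR adjusted p = 5.12e-07), while notum.L had 14.6, 16.1 and 14.99 CPM, against 8.88, 10.2 and 9.29 CPM in control bulbs (log2 fold change 0.68 ± 0.08 (0.38 with both homeologs summed), edgeR adjusted p = 8.07e-06). The .L copy was the more abundant by far in bulbs, in CPM and in TPM alike.

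**Figure D5:**
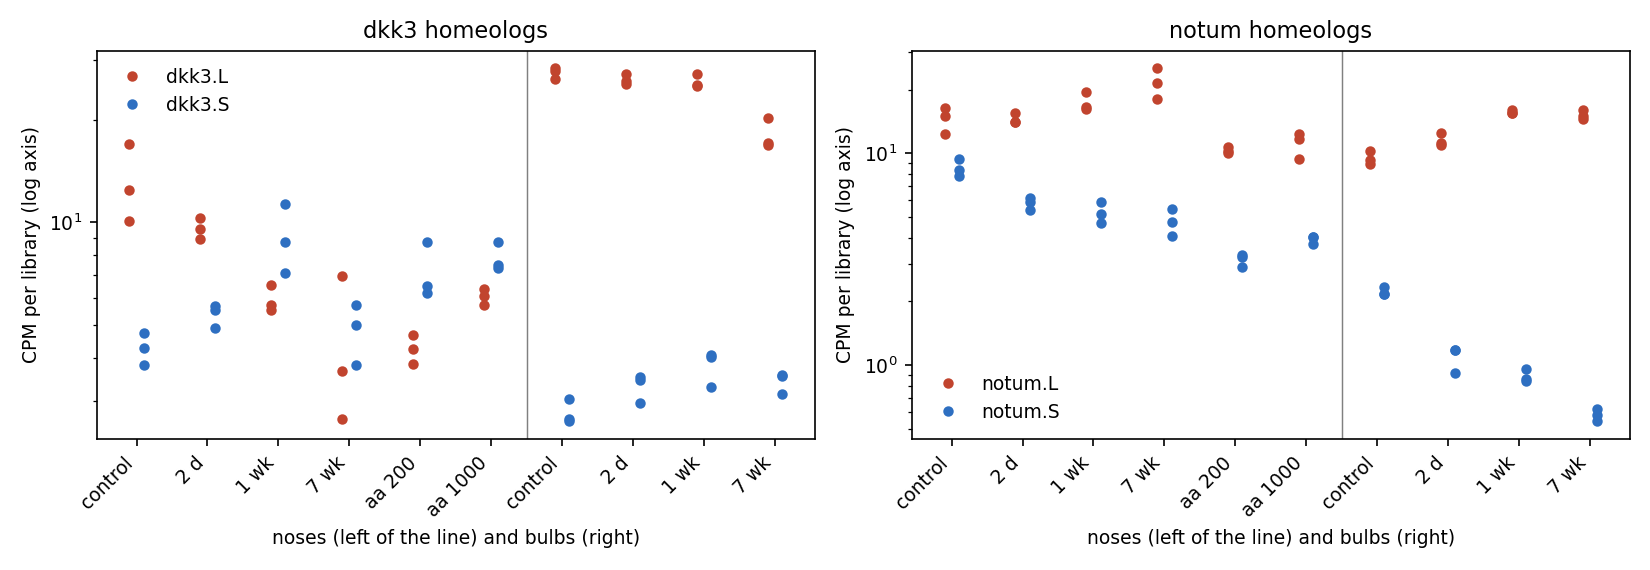
CPM per library (log axes) of the dkk3 and notum homeologs (.L red, .S blue) in 6 nose groups, left of the line, and 4 bulb groups, right of it. In noses at 1 week dkk3.L lies below its controls and dkk3.S above its controls. Notum.S in bulbs lies below its controls at each time while notum.L lies above its controls at 1 and 7 weeks.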

How the data were processed

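RNA of whole noses, principal cavities, vomeronasal organs and bulbs was sequenced in 39 libraries, 3 per group, and the titles of the samples gave the groups. The submitters' processing notes name bcl2fastq 2.17.1.14, STAR 2.5 and featureCounts of Subread 1.5.0, while genome build, annotation and strandedness are not stated in the sources used. Raw gene counts, as the authors deposited them, were the input of every test. The TPM values were scaled by gene length by the authors before they were deposited, and were used only to compare levels between genes. Another deposited table, of normalised values, was not used. Since columns carry a group name and number but no library number, each was assigned to a group and to no particular sample.

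Of 37240 entries, 17 repeats with identical counts were dropped, and 1 line had been emptied beforehand. Of the 104 members, 88 matched a symbol in the RefSeq gene table of Xenopus laevis used here. Related groups were fitted together with edgeR 4.0.16 in R 4.3.3 (limma 3.58.1), as 7 nose groups, 4 bulb groups, principal cavity with VNO, and the 8 control and transection groups of nose and bulb for tissue and response differences. The low-count filter was filterByExpr with a minimum count of 10 and a minimum total of 15, scaling was by TMM, and genes were tested with robust quasi-likelihood F tests, with Benjamini-Hochberg adjustment over all genes of a comparison and calls at 0.05. Standard errors derive from the F statistic. CPM use TMM-scaled library sizes over all 39 libraries and serve comparisons of 1 gene between groups. The fits were tested on simulated data.

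Members and lists were chosen with earlier results of these data known. A comparison names at most 8 called members in each direction (6 for response differences), by size of fold change, if their libraries do not overlap between groups and the group with more reaches 1 CPM. To these were added the 10 members of highest TPM and a fixed set of axin2, lef1, notum, ctnnb1, tcf7l2, wif1, frzb, sfrp1, sfrp2 and dkk3. Those whose call ended without 1 library or under another model were passed over as examples unless that is stated. Values introduced as also called were given outside these rules. Further pathway genes came from 4 lists covering secretion and co-receptors, the cytoplasmic relay, nuclear partners and targets, and the planar polarity and calcium branch, with up to 4 called entries named per list. Alternatives were DESeq2 size factors in edgeR, the DESeq2 1.42.0 Wald test, no low-count filter, homeologs summed, all 39 libraries in 1 model, and each library left out in turn. Leaving out pairs of libraries and a replicate block on the column number were chosen after seeing the data.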

Additional observations from a re-analysis of the deposited data

Results flagged for a closer look

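The nose and bulb responses to transection differed by a test of the difference itself (an interaction term in edgeR, adjusted p under 0.05) for the members that follow. They are a part of those called, namely up to 6 in each direction by the naming rule above and called members of the fixed set. In all, 20 members were called positive and 5 negative at 2 days, 22 and 7 at 1 week, and 38 and 6 at 7 weeks. The share of tested members called was 24.8%, 28.7% and 43.6%, beside 16.1%, 25.4% and 35.7% of all genes, so both grew over time. Values are the nose response minus the bulb response on the log2 scale, so a positive one means that the gene was higher in noses relative to their control than in bulbs relative to theirs.

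At 2 days the difference was positive for fzd10.S (2.36), sfrp1.S (2.09), fzd10.L (2.06), sfrp1.L (1.73), wnt10b.L (1.64), frzb.L (1.51), sfrp2.S (1.22), sfrp2.L (1.06) and wif1.L (0.80). It was negative for wnt10a.L (-2.45), lrp6.L (-1.01), fzd4.S (-0.67), wif1.S (-0.65) and wnt9a.L (-0.58).

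At 1 week the difference was positive for sfrp4.L (2.13), sfrp1.S (2.12), sfrp1.L (1.98), sfrp5.L (1.91), sfrp5.S (1.55), sfrp2.L (1.53), sfrp2.S (0.97), tcf7l2.S (0.67) and notum.S (0.65). It was negative for wnt10a.L (-2.62), wnt7a.L (-2.22), znrf3.L (-1.33), dkk3.L (-1.05), lrp6.L (-1.02) and wnt5a.S (-0.82).

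At 7 weeks the difference was positive for wnt8b.S (2.53), wnt11b.L (2.45), sfrp1.S (1.90), sfrp1.L (1.89), wnt2b.L (1.69), sfrp2.L (1.69), tcf7l2.L (1.33), notum.S (1.08), tcf7l2.S (0.87), lef1.L (0.87), lef1.S (0.82), wif1.L (0.72), wif1.S (0.55) and axin2.L (0.49). It was negative for wnt10a.L (-3.37), wnt7a.L (-2.99), znrf3.S (-1.26), dkk3.L (-1.04) and dkk2.S (-0.97).

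Of these 48 values, 12 were no longer called when at least 1 library was left out. The value of wnt8b.S at 7 weeks was 0.93 without nose library 3 of that time, and that of lef1.L was 0.45 without nose library 2. Summed homeologs gave 0.23 for wif1 at 2 days, −0.51 for notum at 1 week, and −0.22 for notum and 0.49 for dkk2 at 7 weeks, opposite in sign to the single copy. The 3 times share their control noses and control bulbs, so the lists are not independent of each other. Radial glia, proliferation, mesenchyme and cartilage markers also moved by different amounts in the 2 tissues, as given above, and their part was not tested.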

How the results depend on the processing

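Precision is limited by 3 libraries per group, and low ligands rest on few reads. The column names number the libraries of each group 1 to 3, with no statement that a number marks a shared animal, batch or day. Same-numbered libraries did not all deviate together, with correlations of −0.315 to 0.29 over the comparisons, so they were not taken as pairs. With the number as a replicate block, chosen after seeing the data, 12 members were called for principal cavity against VNO (11 without it), and every other count stayed within 1.5 times the reported one. Of the named members, 16 calls ended under the block and none reversed. In the model of all 39 libraries the count of called members was 49 for principal cavity against VNO, 28 for bulbs at 2 days, 34 at 1 week and 22 at 7 weeks against 1 week, and the DESeq2 Wald test gave 21 for principal cavity against VNO, against 11, 43, 54, 38 and 11 as reported. The cause was not tested. Without control nose library 1 and 2-day nose library 2 together, 7 members were called at 2 days in noses, and 13 members differed between principal cavity and VNO when library 3 of the cavity and library 1 of the VNO were both left out. When 1 library was left out, counts ran from 2 to 19 for principal cavity against VNO and from 7 to 17 for noses at 2 days. In the other 14 comparisons they stayed within 1.5 times the reported count, and size factors or the low-count filter moved no count beyond that. For single named members, leaving out 1 library kept direction and call in 3012 values, ended the call in 258 and reversed none.

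Summing homeologs reversed the sign of the less abundant or weaker copy. The summed values were 0.084 for axin2.S in adults, −0.165 for sfrp1.S in the principal cavity and −0.81 for dkk3.S in noses against bulbs. In noses they were 0.49 for wif1.S at 2 days, −0.24 for dkk3.S at 1 week, −0.95 for dkk3.S and 0.17 for notum.S at 7 weeks and −0.015 for dkk2.L at 7 weeks against 1 week. In bulbs they were 0.001, 0.40 and 0.38 for notum.S over the 3 times, −0.13 and −0.54 for dkk3.S at 1 and 7 weeks and 0.15 for znrf3.L at 7 weeks against 1 week. After amino acids they were −0.64 and −0.33 for dkk3.S at dose numbers 200 and 1000 and 0.34 for sfrp1.S at 1000. For response differences they were 0.23 for wif1.S at 2 days, −0.51 and −0.22 for notum.S at 1 and 7 weeks and 0.49 for dkk2.S at 7 weeks.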

Other observations

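A relay gene outside the member list was nearly unread in control bulbs. The amer1.S entry, a scaffold of the beta-catenin destruction complex, averaged 3.15 ± 0.71 CPM at 2 days, 3.87 ± 0.62 CPM at 1 week and 3.94 ± 0.43 CPM at 7 weeks after transection (SD, n = 3 each), while control bulbs averaged 0.00297 ± 0.00515 CPM and control noses 2.86 ± 0.23 CPM. The gene was noticed after its values were seen. No fold is given, because control bulbs held almost no read of it.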
